A study of Saccharomyces cerevisiae with 37 samples.

Results

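The loss of messenger RNA in unstressed budding yeast was followed from 5 to 30 min after transcription had been shut off. The measurement rests on 10 of the 37 arrays of the series, taken at 5, 10, 15, 20 and 30 min in each of 2 reference cultures, and these arrays were chosen by their label alone. For every gene the least-squares slope of the log2 level on time was taken within each culture, in log2 units per 10 min. The slope of the median gene of that culture was then subtracted, which gives the centred slope. A transcript with a negative centred slope lost level faster than the median gene and is called steep here, and one with a positive centred slope is called shallow. Genes were tested where their mean level on the 4 reference arrays at time 0, which the slopes do not use, exceeded 11.6 log2, which 30% of the probe sets on those arrays did not. That left 3919 of 5449 genes.

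The cells were Saccharomyces cerevisiae Y262, a strain whose RNA polymerase II is temperature-sensitive, grown in rich YPD medium at 26 °C to mid-log phase. An equal volume of medium at 49 °C was added at time 0 to bring the culture to 37 °C, so every sample after time 0 of every culture also met a heat shock and a dilution of the medium. The 2 reference cultures received nothing else. The other 2 cultures of the series had been kept in 0.3 mM hydrogen peroxide for 25 min or in 0.1% methyl methanesulfonate, an alkylating agent, for 40 min before the shift (times read in the order in which the labels name the agents). Each of these has 1 culture, and their values are given only beside those of the reference cultures. The labels speak of 2 reference experiments and do not say how the cultures were started. The p-values of tests that take the culture as the replicate therefore measure only the spread between these 2 time courses. Fits over the single arrays, named as such below, have as their error the scatter of arrays within these 2 time courses. According to the labels' protocols the samples of the second reference at 40, 50 and 60 min were set aside as outliers, and they were not analysed here.

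When RNA polymerase II stops, the level of a transcript falls at the rate at which the cell degrades it. In yeast most decay begins with shortening of the poly(A) tail, followed by removal of the cap and degradation from the 5′ end. Transcripts of proteins that work together often share similar stabilities, with those for building ribosomes known as short-lived and those for glycolytic enzymes and ribosomal proteins as long-lived in growing cells. Heat induces chaperone and general stress genes and represses ribosome assembly genes in wild-type yeast. The cDNA was primed with poly(T), so the signal depends on the poly(A) tail as well as on the transcript, and tail length was not measured.

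The arrays did not share a common level. The median of the tested genes went through 13.07, 12.51, 12.35, 12.10 and 11.82 log2 from 5 to 30 min in reference culture 1, and through 12.30, 11.82, 11.65, 11.66 and 11.79 in reference culture 2. Culture 1 thus declined on every array, whereas culture 2 was lowest at 15 min and higher again at 30 min. The slope of the median gene was -0.43 log2 per 10 min in culture 1 (half-life 23.4 min) and -0.14 in culture 2 (72.9 min). Of 11 bright bacterial poly-A control probe sets the mean slope was -0.07 and -0.03, smaller than that of the median gene. Levels below are therefore relative to the median tested gene of the same array unless they are called deposited, and half-lives are quoted only as values of a single culture. The alpha-cell genes STE3 and SAG1 stood 1.77 to 3.33 log2 above the median gene at 5 min in both cultures, and the a-cell genes MFA1, MFA2 and STE2 had relative levels of -2.56 to -1.63. The labels give no mating type. RPO21, which encodes the largest subunit of RNA polymerase II, had a centred slope of 0.05 in both cultures.

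The 2 cultures ordered the transcripts alike. Across the 3919 genes the centred slopes of culture 1 and culture 2 had a Pearson correlation of 0.69 (Spearman 0.69), which describes genes that share 5 arrays on each side and are not independent replicates. On the same side of the median gene lay 2964 genes (75.6%). Of the 391 steepest genes of either culture (10% of those tested), 226 were among the 391 steepest of the other, which is 57.8% of each set, and for the 391 shallowest genes the count was 186 (47.6%). No gene was among the 391 shallowest of culture 1 and the 391 steepest of culture 2, and 7 were the reverse. The 391 steepest genes of culture 1 had a median centred slope of -0.57 in that culture and -0.29 in culture 2, and the 391 shallowest had 0.28 and 0.19. Centred slopes spread more widely in culture 1 (SD over genes 0.27) than in culture 2 (0.20).

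Much of the disagreement sat on the last array. With the 30 min arrays left out, so that the slope runs from 5 to 20 min, the correlation between the cultures was 0.89 and 81.2% of genes lay on the same side of the median gene. The median gene then had slopes of -0.54 and -0.36. The plot of the slopes of the 2 cultures against each other shows this as a tighter diagonal on the right.

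**Figure D1:**
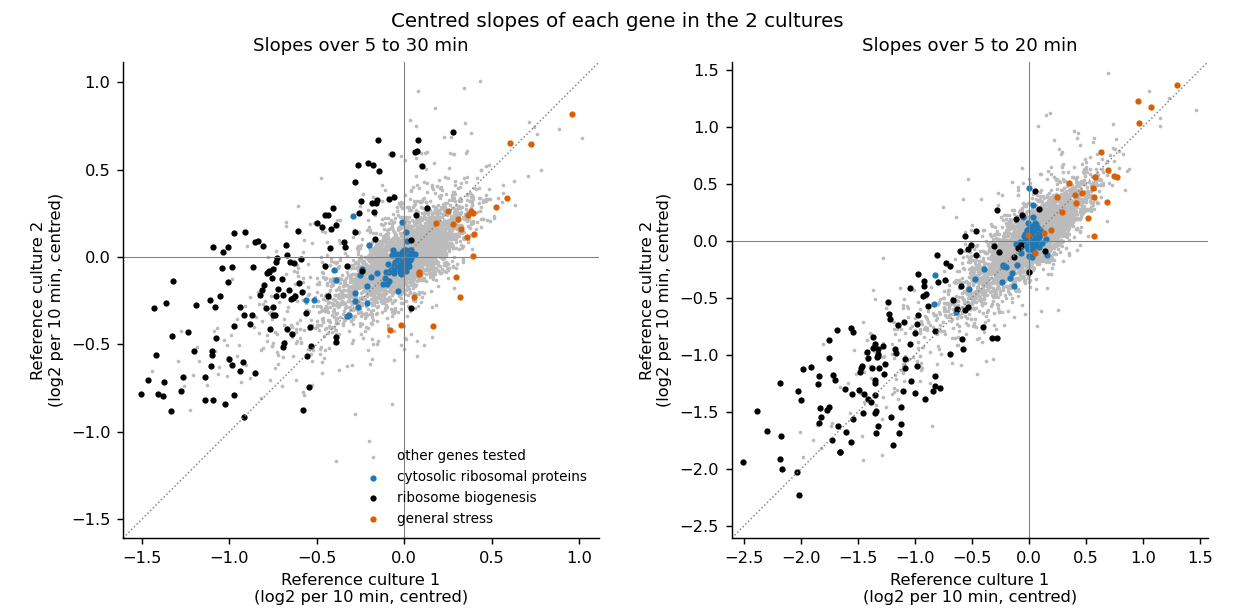
Centred slope of each of 3919 genes in reference culture 1 (x axis) and reference culture 2 (y axis), in log2 per 10 min, over 5 to 30 min (left) and 5 to 20 min (right); colours mark 3 gene lists and the dotted line marks equal slopes. Ribosome biogenesis transcripts lie far to the left in both panels, but on the left panel many of them sit near or above 0 in culture 2, and the correlation is 0.69 against 0.89 on the right.

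With 2 cultures as the replicates, limma called 0 of 3919 genes (0%) different from the median gene over 5 to 30 min after Benjamini-Hochberg adjustment at 0.05. The lowest adjusted p was 0.103, and 1150 genes had an unadjusted p under 0.05, of which 659 were steeper and 491 shallower. The same limma test on the slopes from 5 to 20 min called 776 genes steeper (19.8%) and 523 shallower (13.3%), with a lowest adjusted p of 0.00309. A fit over the 10 arrays with the culture as a block, whose error is the scatter of arrays and not of cultures, called 669 steeper (17.1%) and 1093 shallower (27.9%). Calls named below come from the 5 to 20 min test, since the 5 to 30 min test made none. That range was taken after this outcome was known, and it leaves out the arrays on which much of the disagreement sat. Its adjusted p-values do not account for that choice. Genes ranked by their slopes over 5 to 30 min were ranked partly on the same arrays, so a call adds no independent support for them. Counts of called members in a list are to be read beside these shares of all genes. Where a transcript is only placed by its slopes over 5 to 30 min, it is said to be below or above the median gene in both cultures, which holds for 1482 genes (37.8%) and 1482 genes (37.8%).

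Transcripts for building ribosomes led the steep end. Among the 15 transcripts with the most negative mean centred slope that had the same sign in both cultures, 11 belonged to the ribosome biogenesis list. They were NOP13 and NOP7, which act in the nucleolus on precursors of the ribosome, ENP2, DIM1 (the dimethylase of 18S ribosomal RNA), the helicase DRS1, RPF1, RRB1 (a chaperone of ribosomal protein Rpl3), NIP7, KRE33 (a cytidine acetyltransferase of 18S RNA), RRP1 and the GTPase BMS1. The other 4 were EFM4, a methyltransferase of translation elongation factor 1A, PXR1 and NMD3, which also act in ribosome maturation and export but were in no list, and URA7, a CTP synthetase. All 15 were called steeper from 5 to 20 min (limma adjusted p 0.00309 to 0.00966). The arrays of that test had also entered the ranking, so these calls are no independent support for it.

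NOP13 shows the course. Its level relative to the median gene was 1.24, 0.61, -0.60, -1.86 and -2.15 log2 at 5, 10, 15, 20 and 30 min in culture 1. In culture 2 the values were 0.48, -0.19, -1.71, -2.26 and -1.18. Both cultures declined at each step to 20 min, and culture 2 was then higher at 30 min while culture 1 was not. The centred slopes over 5 to 30 min were -1.51 and -0.78 log2 per 10 min, and the uncentred slopes correspond to half-lives of 5.17 and 10.9 min. Over 5 to 20 min the centred slopes were -2.17 and -2.00 (limma adjusted p 0.00309).

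Over the whole list, 134 of 135 ribosome biogenesis genes were tested. Their median centred slope was -0.73 in culture 1 and -0.17 in culture 2, with 87 members below the median gene in both cultures (37.8% of all genes tested) and 8 above it in both. From 5 to 20 min the medians were -1.22 and -1.03, and 111 members were called steeper (19.8% of all genes) and 0 shallower. The members differed widely among themselves, with mean centred slopes over 5 to 30 min from -1.15 to 0.50 and quartiles at -0.68 and -0.15. Within the list the slopes of the 2 cultures correlated at 0.74 (134 genes, Spearman 0.70), so the order of the members was shared although the size was not. Of the 226 genes that both cultures placed among their 391 steepest, 53 were on this list.

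Not all members followed the same course in time. A quadratic term added to the fit of the 10 arrays measures the bend of each course against that of the median gene; a term above 0 means that a steep early part was followed by a flatter or rising one. It was above 0 and called for 557 genes (14.2%) and below 0 for 957 (24.4%), with limma adjusted p under 0.05. With the 5 or the 15 min arrays left out it was called for 0 genes, and without the culture as a block for 247. Among ribosome biogenesis genes 99 were called above 0 and 1 below 0. The 5 largest terms among all genes, 1.15 to 1.30 log2 per squared 10 min (limma adjusted p 0.0113 to 0.0167), belonged to DBP3, RPF2, PUF6, RLP24 and IMP3, which all act in ribosome assembly.

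RPF2, a factor of the large subunit that brings in the 5S particle, had relative levels of 2.06, 1.06, -0.56, -1.46 and -1.22 in culture 1. In culture 2 it had 1.03, -0.66, -2.22, -1.61 and 0.13. Culture 2 reached its lowest level at 15 min and was back near the median gene at 30 min, while culture 1 stayed low. DBP3, a helicase of the large subunit, had its lowest value of -2.78 at 15 min in culture 2 and stood at -0.77 at 30 min, against -1.87 and -1.71 in culture 1. The transcript of UTP15, part of the early small subunit complex, was lowest already at 10 min in both cultures (-1.39 and -2.11) and stood at -0.31 and 0.13 at 30 min. It is shown because it ended with a positive centred slope in both cultures (0.28 and 0.72) despite the drop, and it was not called from 5 to 20 min (limma adjusted p 0.163).

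SDA1, which is needed for export of the large subunit, went the other way. It held 1.14, 1.15, 0.62, 0.14 and -0.91 in culture 1 and 0.79, 0.47, -0.16, -1.07 and -1.23 in culture 2. SAS10, of the small subunit processome, had 0.90, 0.95, 0.47, -0.18 and -1.40, and 0.39, 0.19, -0.41, -1.30 and -1.41. Both were at their lowest on the last array of each culture, and both were called steeper from 5 to 20 min (limma adjusted p 0.0137 and 0.00948) with no call on the bend. UTP15, SDA1 and SAS10 were picked after their values were seen, as examples of an early and a late course.

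**Figure D2:**
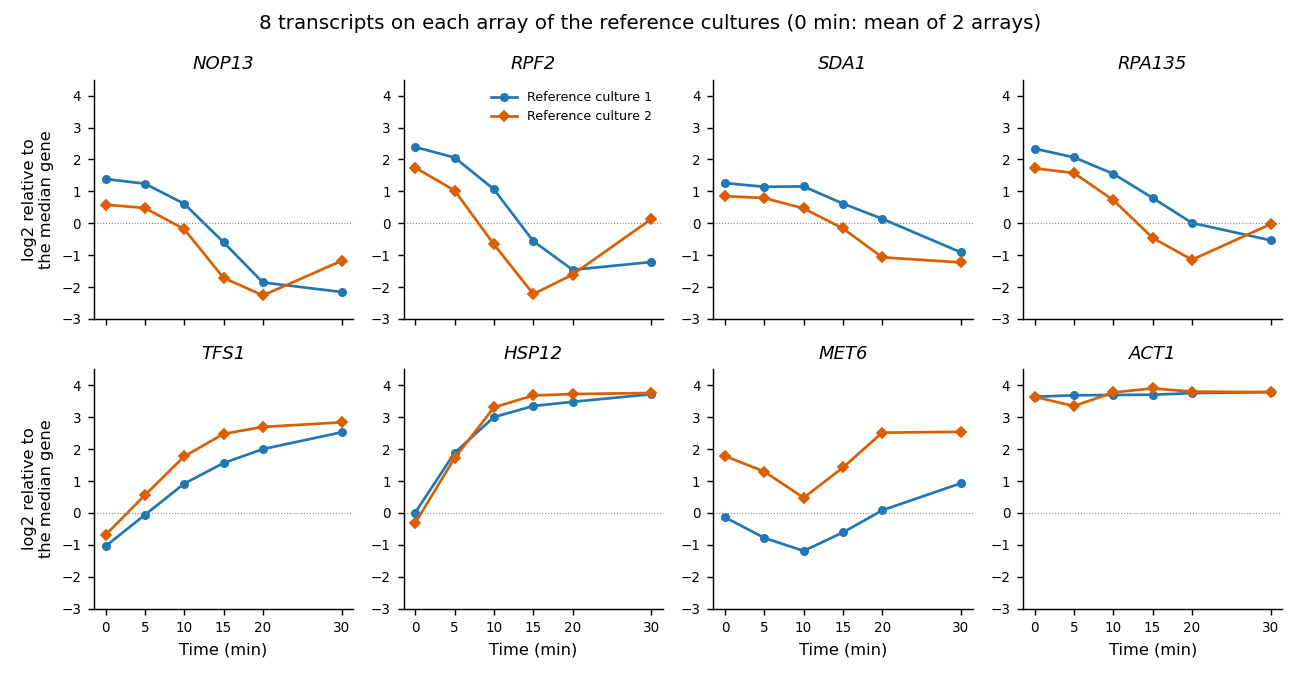
Level of 8 transcripts in log2 relative to the median tested gene of the same array (y axis) against time in min (x axis), for reference culture 1 (circles) and reference culture 2 (diamonds), 1 array per point from 5 min on. In culture 2 NOP13 and RPA135 were higher at 30 than at 20 min and RPF2 was higher from 20 min on, SDA1 was lowest at 30 min, TFS1 and HSP12 climbed over the first 15 min, MET6 was lowest at 10 min, and ACT1 stayed between 3.35 and 3.91.

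The time of the lowest level differed between the cultures. Of the 134 ribosome biogenesis transcripts, 50 had their lowest relative level at 30 min in culture 1 and 46 at 20 min, whereas in culture 2 it was at 15 min for 75 and at 30 min for 7. The lowest point came earlier in culture 2 for 94 members, at the same array for 35 and later for 5. As a median the list stood at 0.62, -0.26, -1.14, -1.44 and -1.35 log2 in culture 1, and at -0.11, -1.31, -1.94, -1.68 and -0.74 in culture 2. Between 15 and 30 min the deposited level of 90 members (67.2%) went up by more than 1 log2 in culture 2, beside 201 of all genes (5.13%), and in culture 1 by 0 members, beside 2 of all genes (0.051%). The rise in culture 2 is present in the deposited values as well as relative to the median gene, with list medians of 1.30 and 1.16 log2. On that array the median gene also stood 0.14 log2 higher than at 15 min, and the later samples of this culture are those set aside by the submitters; whether this bears on the rise was not tested.

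**Figure D3:**
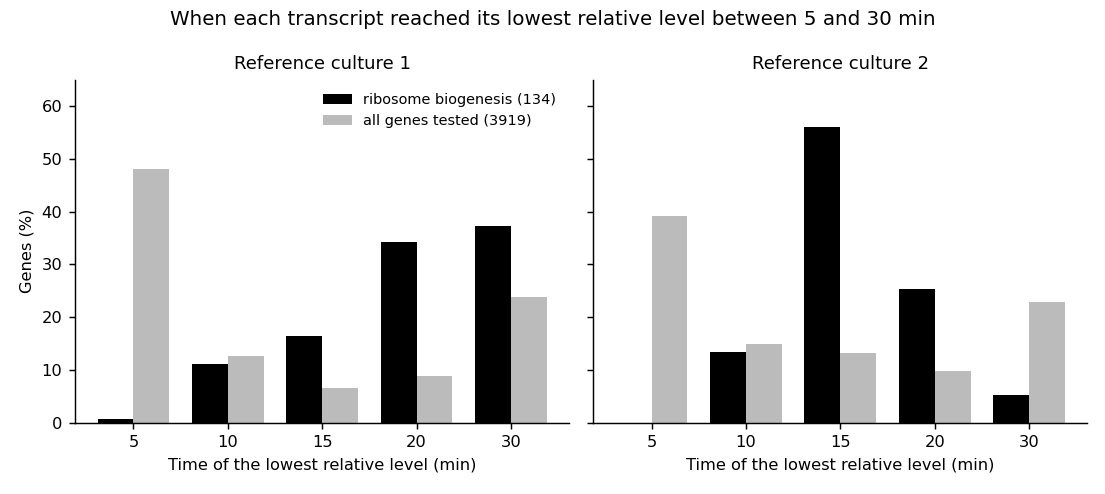
Share of genes (y axis, %) whose lowest relative level between 5 and 30 min fell on each time point (x axis, min), for 134 ribosome biogenesis genes (black) and all 3919 genes tested (grey), in each reference culture. In culture 1 the black bars are highest at 30 min (37.3%) and in culture 2 at 15 min (56.0%), while the grey bars are highest at 5 min in both.

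Subunits of RNA polymerase I and III, the enzymes that make ribosomal and transfer RNA, were steep as well. Of 20 members, all tested, 13 were below the median gene in both cultures and 0 above it in both (37.8% of all genes each way). From 5 to 20 min 18 were called steeper, beside 19.8% of all genes. The median centred slope was -0.55 in culture 1 and -0.19 in culture 2. RPA135, the second-largest subunit of polymerase I, had 2.07, 1.55, 0.79, 0.01 and -0.53 in culture 1, and 1.57, 0.72, -0.46, -1.14 and -0.03 in culture 2. RPA190, the largest subunit, had centred slopes of -0.82 and -0.81, and RPA49 had -1.19 and -0.51. Among the 3 leading members RPA190 agreed most closely between cultures over this full range, but least from 5 to 20 min. Its centred slopes were then -0.85 and -1.62. Those of RPA49 were -1.83 and -1.82, and those of RPA135 were -1.46 and -1.92. All 3 were called steeper from 5 to 20 min (limma adjusted p 0.00309 to 0.0204). The bend was above 0 and called for 15 of the 20.

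RNA polymerase II subunits were less extreme, with list medians of -0.05 and 0.00 and 4 of 11 called steeper, beside 19.8% of all genes. RPB8, RPO26 and RPB10, which are shared by all 3 polymerases, led that list, with centred slopes from -0.41 to -0.16 in the 2 cultures. Each was called steeper from 5 to 20 min.

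Enzymes that modify or process transfer RNA were also steep. Of 50 members 45 were tested, and 28 lay below the median gene in both cultures and 6 above it in both (37.8% of all genes each way). From 5 to 20 min 31 were called steeper and 1 shallower, beside 19.8% and 13.3% of all genes. Over 5 to 30 min the list median was -0.25 in culture 1 and only -0.05 in culture 2, and over 5 to 20 min it was -0.53 and -0.47. The median for tRNA modification and processing was -0.15 in the mean of the cultures and 0.03 without the 5 min arrays. PUS7, a pseudouridine synthase, had 0.98, 0.11, -0.92, -1.45 and -1.41 in culture 1, and 0.97, -0.11, -1.22, -1.28 and -0.73 in culture 2. The courses overlap up to 10 min and part at 30 min. ELP2, of the Elongator complex, had centred slopes of -1.06 and -0.67, and TRM1, a guanine dimethyltransferase of transfer RNA, had -1.09 and -0.43. All 3 were called steeper (limma adjusted p 0.00309 to 0.00396).

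Within translation the parts differed. Of 35 translation factors 27 lay below the median gene in both cultures and 3 above it in both (37.8% of all genes each way), with medians of -0.19 and -0.12. From 5 to 20 min 21 were called steeper and 1 shallower, beside 19.8% and 13.3% of all genes. TIF4631, the scaffold eIF4G1, had 1.11, 0.04, -0.36, -0.48 and -0.52 in culture 1 and 0.99, -0.07, -0.67, -0.66 and -0.18 in culture 2. Most of its loss was over by 15 min in both cultures, and its bend was called (0.61, limma adjusted p 0.00681). TIF3, or eIF4B, had centred slopes of -0.72 and -0.56, and GCD11, a subunit of eIF2, had -0.54 and -0.31. Among 19 aminoacyl-tRNA synthetases 3 were called steeper and 0 shallower, beside 19.8% and 13.3% of all genes. A bend below 0, beside 24.4% of all genes, was called for 9, so that their levels turned down late. The 3 called steeper were ALA1, MES1 and GLN4, with centred slopes between -0.42 and -0.29 in both cultures.

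Cytosolic ribosomal proteins stayed with the median gene. All 128 were tested, 22 of them on probe sets shared with another gene copy, and the median centred slope was -0.01 in culture 1 and -0.02 in culture 2, with the sign turned for cytosolic ribosomal proteins when each array was centred first (0.02 in the mean). The quartiles of the members were -0.05 and 0.00 in the mean of the cultures, although 70 of them were below the median gene in both. Called steeper from 5 to 20 min were 10, and 0 were called shallower, beside 19.8% and 13.3% of all genes. The leading members were RPL27B, with centred slopes of -0.56 and -0.25, RPS7B with -0.52 and -0.24, and RPL13A with -0.33 and -0.34 (limma adjusted p 0.00724 to 0.0334). Each of these 3 has another gene copy. Mitochondrial ribosomal proteins had medians of -0.01 and 0.06. Of 73 tested 2 were called steeper and 7 shallower, beside 19.8% and 13.3% of all genes.

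**Figure D4:**
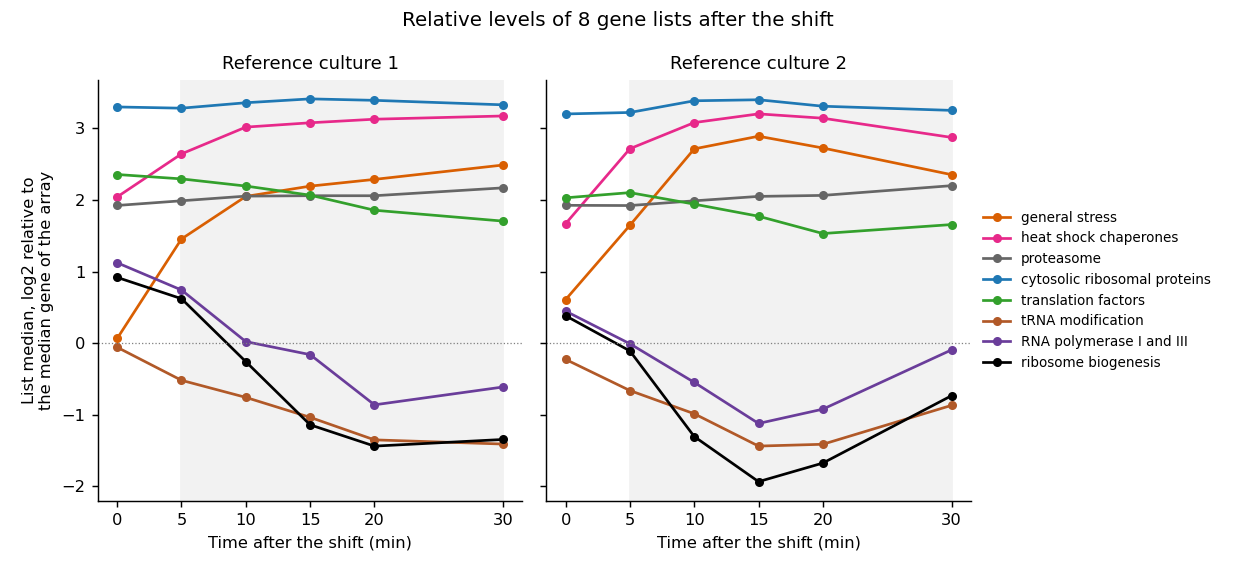
Median level of 8 gene lists in log2 relative to the median tested gene of the same array (y axis) against time in min (x axis), in reference culture 1 (left) and 2 (right); the grey band marks the 5 to 30 min used for slopes, and 0 min is the mean of 2 arrays. Ribosome biogenesis went from 0.62 to -1.44 at 20 min in culture 1 and from -0.11 to -1.94 at 15 min in culture 2, general stress genes climbed, and ribosomal proteins stayed between 3.22 and 3.41 from 5 to 30 min.

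Abundant housekeeping transcripts were near the median gene. ACT1 (actin) had 3.69, 3.7, 3.71, 3.76 and 3.79 log2 in culture 1 and 3.35, 3.78, 3.91, 3.81 and 3.79 in culture 2, with centred slopes of 0.00 and 0.10. PGK1, TDH3, RPL3 and RPL28 had centred slopes between -0.01 and 0.03 in both cultures. None of these 5 was called from 5 to 20 min (limma adjusted p 0.395 to 0.970). The 18 glycolytic and fermentation genes tested had medians of 0.01 and 0.02. Called steeper were 2, PFK2 among them (-0.22 and -0.28), and shallower 4, beside 19.8% and 13.3% of all genes. Among the 4 were PDC5, a pyruvate decarboxylase (0.32 and 0.18), and GLK1, a glucokinase (0.40 and 0.13). PDC5 was dim, with a level of 11.7 log2 at time 0, just above the filter of 11.6. Many of the other transcripts are among the brightest on the arrays, up to 4.44 log2 above the median gene. Whether their signal was compressed at the bright end was not tested.

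Steep transcripts were also found in lists whose medians were near the median gene. OLE1, the fatty acid desaturase, had 1.43, 0.88, 0.52, -0.08 and -0.18 in culture 1 and 1.62, 1.38, 0.73, 0.19 and -0.02 in culture 2. The cultures ran in parallel, with centred slopes of -0.70 and -0.74, and OLE1 was called steeper from 5 to 20 min (limma adjusted p 0.00324). The list of 19 fatty acid and phospholipid genes to which it belongs had medians of -0.03 and -0.10. Called steeper were 3 of them, PIS1 included (-0.47 and -0.39), and shallower 2, beside 19.8% and 13.3% of all genes. STE3, the receptor for a-factor and a classical short-lived transcript, had 1.77, 1.06, 0.52, 0.14 and -0.12, and 2.19, 1.66, 1.31, 1.11 and 1.11. Its centred slopes were -0.78 and -0.45 (limma adjusted p 0.0105 over 5 to 20 min). In the mating pathway list 3 of 21 were called steeper and 3 shallower, beside 19.8% and 13.3% of all genes. The steeper ones were STE3, FIG1 (-0.53 and -0.56) and AGA1 (-0.49 and -0.32). Other transcripts known as short-lived could be placed less well, since the G1 cyclin CLN2 had -0.07 and 0.09 and the mating pheromone gene MFA2 was under the level filter. CLN2 had gone from -0.60 to -1.70 in culture 1 and from -0.15 to -1.46 in culture 2 before 5 min, where the slope begins.

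Histone and purine genes were moderately steep. Of 10 histone genes tested, 2 were on probe sets shared with another gene copy. Below the median gene in both cultures lay 8, and above it in both 0 (37.8% of all genes each way). From 5 to 20 min 4 were called steeper, beside 19.8% of all genes. Among them were HTB2, which encodes histone H2B (centred slopes -0.55 and -0.41), and the linker histone HHO1 (-0.37 and -0.44). Of 21 purine synthesis genes 15 were below in both and 1 above in both, with medians of -0.27 and -0.15. Called steeper were 8 of them, beside 19.8% of all genes. For DNA replication and repair, 17 of 40 were called steeper and 1 shallower, beside 19.8% and 13.3% of all genes. The steeper ones included POL1, the catalytic subunit of DNA polymerase alpha (-0.48 and -0.52), and MSH6, of mismatch repair (-0.48 and -0.53). Amino acid biosynthesis had 12 of 61 called steeper, close to the 19.8% of all genes, and 1 shallower, and 21 members had a bend called below 0, beside 24.4% of all genes.

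**Figure D5:**
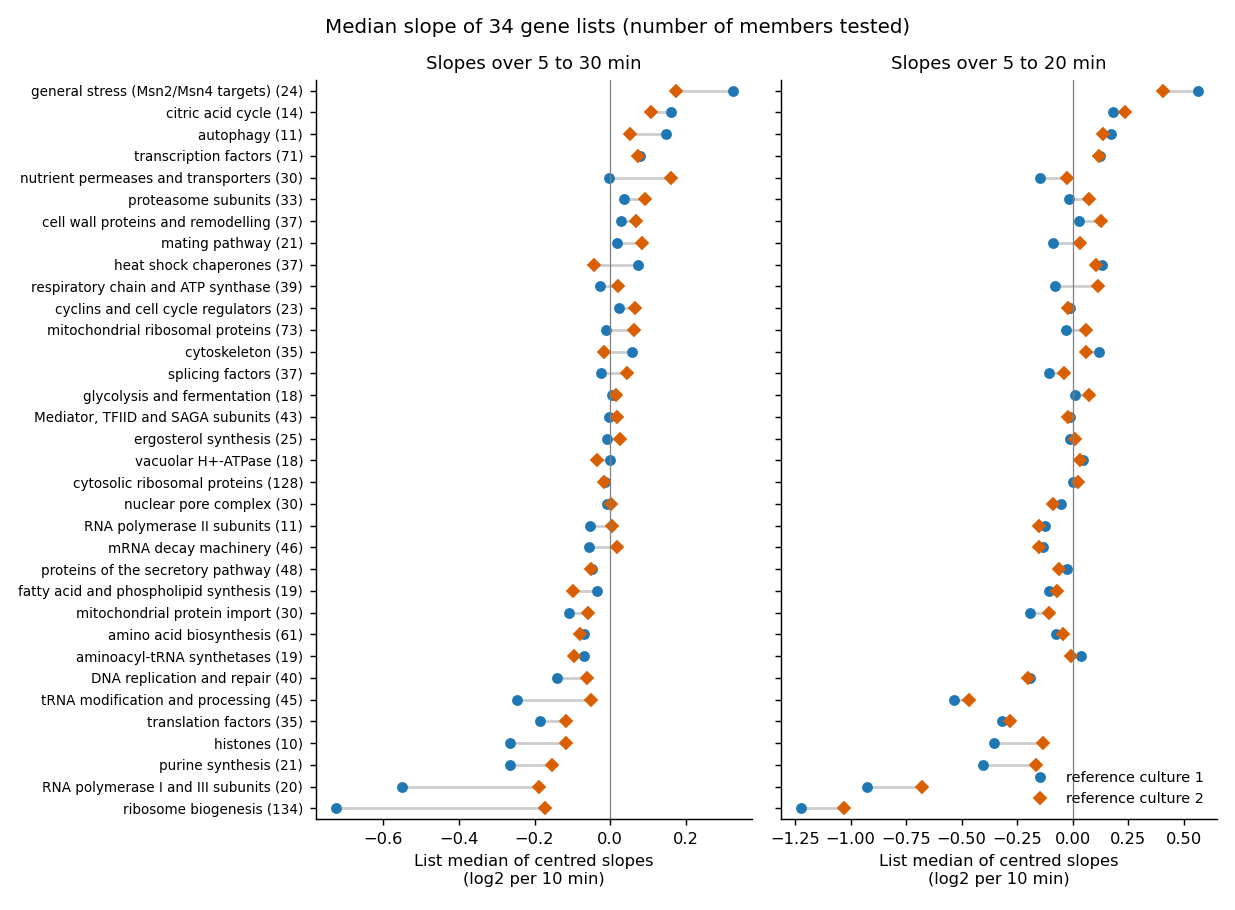
Median centred slope (x axis, log2 per 10 min) of each of 34 gene lists (y axis, number of members tested in brackets) in reference culture 1 (circles) and reference culture 2 (diamonds), over 5 to 30 min (left) and 5 to 20 min (right). Ribosome biogenesis and RNA polymerase I and III lie lowest on both panels, general stress lies highest, and the gap between cultures for ribosome biogenesis is from -0.73 to -0.17 on the left and from -1.22 to -1.03 on the right.

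At the shallow end stood general stress transcripts, whose level relative to the median gene went up, so their slopes are no measure of lifetime. Of 41 genes known as targets of the stress regulators Msn2 and Msn4, 24 passed the level filter at time 0, so the members that were lowest before the shift are not in the counts. Above the median gene in both cultures were 16 and below it in both 2 (37.8% of all genes each way). From 5 to 20 min 18 were called shallower (13.3% of all genes) and 0 steeper, with medians of 0.56 and 0.41, and over 5 to 30 min the medians were 0.32 and 0.17. For 20 of the 24 the bend was called below 0, meaning an early climb that levelled off. As a median the list went from 0.06 at time 0 to 1.46 at 5 min and 2.05 at 10 min in culture 1, and from 0.61 to 1.65 and 2.71 in culture 2.

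TFS1, an inhibitor of carboxypeptidase Y, had the highest mean centred slope of all genes tested. Its relative level was -0.06, 0.92, 1.57, 2.00 and 2.53 in culture 1 and 0.56, 1.78, 2.48, 2.70 and 2.84 in culture 2. The deposited values went up as well, with uncentred slopes of 0.53 and 0.68 log2 per 10 min, so no half-life can be given. HSP12, a small membrane-associated stress protein, had 1.89, 3.01, 3.35, 3.49 and 3.72, and 1.72, 3.31, 3.69, 3.73 and 3.76. The 2 cultures ran close together, and HSP12 had already gone up by 5 min from 0.02 and -0.31 at time 0. Both were called shallower (limma adjusted p 0.00309 and 0.00627).

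The 15 shallowest transcripts held both stress genes and genes of methionine metabolism. DUG3 and YEH1 were among them too and were not called from 5 to 20 min (limma adjusted p 0.122 and 0.0591). With TFS1 and HSP12 stood MSC1, a further stress target, the Hsp70 SSA3, the heme oxygenase HMX1, the glutamate decarboxylase GAD1, the glycerol dehydrogenase GCY1, and YMR196W and YJR149W. Each of these 9 was called shallower from 5 to 20 min (limma adjusted p 0.00309 to 0.00627), on arrays that had also entered their ranking. Of the 15, 12 had an uncentred slope above 0 in both cultures, a property of 45 of the 3919 genes. In culture 1 only these 45 had a slope above 0, and in culture 2 there were 686.

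Chaperones were split. Of 37 heat shock chaperones 18 were above the median gene in both cultures and 12 below it in both (37.8% of all genes each way). From 5 to 20 min 11 were called shallower and 4 steeper, beside 13.3% and 19.8% of all genes. SSA4, an Hsp70, had 2.41, 3.15, 3.38, 3.52 and 3.62 in culture 1 and 2.36, 3.14, 3.39, 3.41 and 3.43 in culture 2, from -0.06 and -1.19 at time 0. Most of its gain was made by 10 min in both cultures. HSP26 followed the same course (centred slopes 0.43 and 0.39), and both were called shallower (limma adjusted p 0.00724 and 0.00581). HSP30, a plasma membrane protein, had 2.85, 3.19, 3.03, 2.67 and 2.14, and 3.0, 3.6, 3.32, 2.62 and 0.37. It was high in both cultures at 5 min, from -0.34 and -1.49 at time 0, and then declined, in culture 2 most of all on the last array. CNS1, a co-chaperone of Hsp90, was steep throughout (-0.90 and -0.62, limma adjusted p 0.0052).

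Several lists were shallow, with smaller gains in their medians than the general stress list. Single members such as ROX1 gained more, and their slopes are not read as lifetimes. Transcription factors had medians of 0.08 and 0.07, with 45 of 71 above the median gene in both cultures and 13 below it in both (37.8% of all genes each way). From 5 to 20 min 17 were called shallower and 3 steeper, beside 13.3% and 19.8% of all genes. The list has 122 members, and those under the level filter are not in these counts. ROX1, a repressor of hypoxic genes, had -0.57, -0.61, -0.06, 0.43 and 0.55 in culture 1 and -0.68, -0.65, 0.14, 0.33 and 0.56 in culture 2. The 2 cultures ran close together, and it was called shallower (limma adjusted p 0.00713). Of 14 citric acid cycle genes 9 were above in both cultures and 1 below in both. Called shallower were 6 and steeper 0, beside 13.3% and 19.8% of all genes. The 6 included IDH1 (0.23 and 0.46) and IDH2 (0.18 and 0.25), the subunits of isocitrate dehydrogenase. Proteasome subunits were uniform, with 24 of 33 above the median gene in both cultures and 2 below it in both, a median of 0.04 and 0.09, and 0 called in either direction from 5 to 20 min by the test of 2 cultures; the fit over the 10 arrays called 23 shallower and 0 steeper. Of 34 autophagy genes only 11 passed the level filter. Called shallower were 4 and steeper 1, beside 13.3% and 19.8% of all genes. ATG8 (0.47 and 0.32) and ATG33 (0.27 and 0.24) were among the shallower ones, and ATG41 was the steeper one (-0.53 and -0.73).

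Of the 15 shallowest transcripts 4 belong to methionine metabolism or uptake, and none of them had a bend called. MET6, the methionine synthase, had -0.78, -1.19, -0.61, 0.09 and 0.93 in culture 1 and 1.30, 0.48, 1.43, 2.52 and 2.54 in culture 2. Both cultures were lowest at 10 min and climbed after it, and culture 2 was higher at every time. MUP1, the methionine permease, had centred slopes of 0.71 and 0.77, and both genes were called shallower (limma adjusted p 0.0133 and 0.027). MHT1, a methyltransferase that makes methionine (0.43 and 1.01), and MET1, an enzyme of siroheme synthesis (0.34 and 0.97), were higher in culture 2, and MET1 was called (limma adjusted p 0.0388) and MHT1 was not (0.151).

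Few single genes were called different between the cultures beyond the scatter of arrays around their lines. An interaction of culture and time over the 10 arrays was called by limma for 2 genes (0.051%), BTN2 and RTS3, while 351 genes had an unadjusted p under 0.05. On simulated data this test recovered 8% of genes with a difference of 0.3 log2 per 10 min and 66% of those with 0.6. The low count of calls therefore does not show that few genes differed. Without the 10, 15, 20 or 30 min arrays 0 genes were called, and without the 5 min arrays 14. BTN2, a chaperone that sorts misfolded proteins, had 2.80, 2.81, 2.57, 2.47 and 2.45 in culture 1 and 2.79, 2.57, 2.02, 1.33 and 0.35 in culture 2. The cultures started together at 5 min and parted steadily, giving a difference of -0.86 ± 0.08 log2 per 10 min (SE, culture 2 minus culture 1; limma adjusted p 0.0108). RTS3 had 0.67, 0.61, 0.72, 0.93 and 0.88, and 0.97, 0.63, 0.38, 0.11 and -0.40, a difference of -0.66 ± 0.06 (SE; limma adjusted p 0.0108). Among ribosome biogenesis genes none was called, and the scatter of their arrays around a straight line enters the error of this test. Each side of this test is 1 culture, so it compares these 2 cultures only.

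The order of transcripts was also found in the stressed cultures. Across the 3919 genes the mean centred slope of the reference cultures correlated at 0.83 with that of the peroxide culture over 5 to 30 min and at 0.68 with that of the methyl methanesulfonate culture (Spearman 0.76 and 0.64). Ribosome biogenesis had list medians of -0.47 and -0.53 there, inside the range of the 2 reference cultures, and general stress had 0.16 and 0.28. Cytosolic ribosomal proteins had -0.05 in the peroxide culture and -0.33 in the methyl methanesulfonate culture, the latter below both reference values. Later in culture 1, from 30 to 60 min, ribosome biogenesis had a median of 0.15 and the 391 steepest genes of that culture 0.03, so the early steepness was not seen there. These are values of 1 culture each and carry no test.

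Level and length were weakly related to the slope. The mean centred slope correlated at -0.20 with the level at time 0 (Spearman -0.24) and at 0.06 with the log2 of gene length over the 3919 genes. None of the 15 steepest transcripts was under the 10th percentile of its array at 15, 20 or 30 min in either culture. Of the 134 ribosome biogenesis transcripts, 0 to 13 were under it on those arrays. Whether the dim end of the arrays limited their slopes was not tested. The difference of the 3′ and the 5′ control probe sets of ACT1 lay between 0.36 and 0.48 log2 on the 10 arrays and that of TDH1 went from 0.37 to 0.20 in culture 1 and from 0.55 to 0.30 in culture 2 between 5 and 30 min; its part in the slopes was not tested.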

How the data were processed

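For each probe set of an Affymetrix yeast array the authors deposited a log2 value, from RMA according to the submitters' processing notes. Version and scaling between arrays were not given in the sources used here. Over 5900 probe sets on 37 arrays the values lie between 3.69 and 17.5. The platform's annotation gave 5498 probe sets 1 gene, 0 several and 402 none. Every one of the 5498 names was found in a list of yeast genes (12 with a newer symbol). A gene was represented by its brightest probe set, which gave 5449 genes. Of the genes tested, 58 lay on probe sets shared with another gene copy.

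Slopes were taken per gene and culture, and lmFit and eBayes of limma 3.58.1 (R 4.3.3) tested them against 0 with the culture as replicate, which left 1 residual degree of freedom and a prior of 2.24. The difference between cultures and the bend were fitted on 10 arrays, each centred on its median tested gene. Benjamini-Hochberg adjustment over all 3919 genes was used with a threshold of 0.05. Lists and named genes were chosen with earlier results of these data known. The text names the 15 steepest and 15 shallowest genes of equal sign, the 3 leading members of a list, 20 benchmark genes, and called genes for difference and bend; as the main test called none, the ranking was used without the call, a choice made after the values were seen. From these the text prints those that show a list's range. The replicate number marks a culture, so the slope is blocked by construction. The scripts were tested on simulated data. The number of arrays limits the precision. Alternatives were the filter, normalization, probe set choice, time points, slope estimate, prior and culture block.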

Additional observations from a re-analysis of the deposited data

Results flagged for a closer look

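The slopes of 2 transcripts differed between the reference cultures by the test of the difference itself, an interaction of culture and time over 10 arrays. For BTN2 the slope of reference culture 2 minus that of culture 1 was -0.86 log2 per 10 min, and for RTS3 it was -0.66 (limma adjusted p 0.0108 for both). With any of the 10, 15, 20 or 30 min arrays left out, 0 genes passed.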

How the results depend on the processing

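The call of 0 genes over 5 to 30 min rested on the last arrays and on the error used. Without the 30 min arrays limma called 1299 genes, over 5 to 15 min 1589, over 0 to 30 min 1076, with no filter 440, with Theil-Sen slopes 39 and with a trend in the prior 31, and leaving out the 5, 10, 15 or 20 min arrays instead left 0. With the 10 arrays as units it called 1762 with the culture as replicate block and 1009 with no replicate block. The correlation between cultures was 0.46 without the 5 min arrays, 0.89 without 30 min, 0.88 over 0 to 30 min and 0.91 over 5 to 15 min. The difference between cultures was called for 1 gene with the filter at the 50th percentile, 19 after quantile normalization, 14 without 5 min, and 0 without 10, 15, 20 or 30 min. The bend was called for 1514 genes, for 247 with no replicate block, 626 to 1098 in a single culture, 994 without 10 min, 684 without 20, 662 without 30, and 0 without 5 or 15 min. The median slope of -0.28 (mean of cultures) became 0.014 after quantile normalization, which sets arrays level, -0.59 over 5 to 15 min, and -0.43 to -0.14 in a single culture. Of 34 list medians, 7 turned sign without 30 min, 7 without 5 min and 9 over 5 to 15 min, as did 4, 10 and 11 of 149 named genes. The range over 5 to 15 min was added after the data were seen. Without a culture the test of 2 cultures has no residual degrees of freedom.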

Other observations

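Sulfur assimilation genes that no list held were looked at after MET6, MUP1, MHT1 and MET1 had appeared among the shallowest transcripts, so they are values with no test. MET14, which encodes adenylylsulfate kinase, had relative levels of -0.85, -0.83, -0.90, -0.96 and -0.50 log2 from 5 to 30 min in reference culture 1 and -0.17, -0.40, -0.39, 0.77 and 2.03 in culture 2. MET3, the ATP sulfurylase, had -1.09, -0.99, -0.88, -0.74 and -0.56, and -0.81, -0.97, -0.98, -0.19 and 1.27. In culture 2 both stayed near their 5 min level to 15 min and were higher at 20 and again at 30 min, when MET14 was above the median gene on both arrays and MET3 on the last one. MET5 and MET10, the subunits of sulfite reductase, had centred slopes of 0.28 and 0.26 in culture 1 and 0.59 and 0.60 in culture 2.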
